A study of Mus musculus with 9 samples.

Results

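The cornified envelope genes of the epidermal differentiation complex were followed across 9 RNA sequencing libraries of medullary thymic epithelial cells (mTEC). They were chosen by symbol: every mouse gene named Lce or Sprr with a number, and Lor, Ivl, Flg, Flg2, Hrnr, Rptn, Tchh and Crct1. The rule matched 46 symbols, of which Flg, Lce1j, Sprr2a3 and Sprr2c-ps were not analysed here, which left 42 of the 23003 genes with a symbol. Where a gene had several entries, the one with the highest values was read. Sprr2a1 and Sprr2a2 held identical values in every library, so the 42 members are 41 distinct measurements.

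The cornified envelope is the protein shell that replaces the plasma membrane of a dying keratinocyte at the skin surface. Its precursors are made in the upper epidermal layers and joined by transglutaminases, and most of their genes lie side by side in 1 cluster. Loricrin (Lor) forms the bulk of the shell and involucrin (Ivl) its early scaffold, small proline-rich proteins (Sprr) are short cross-linking bridges, and late cornified envelope proteins (Lce) are added last. The fused S100 genes code for large repeat proteins that bind keratin filaments or fill the inner side of the shell. In the thymus, mTEC show such skin proteins to developing T cells, the transcription regulator Aire raises the expression of many genes restricted to other tissues, and some mTEC that have passed the Aire stage cornify into Hassall's corpuscles.

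All cells came from mice of the C57BL/6 (B6) background about a month old, with the thymi of several mice pooled. They were sorted as CD45-negative and Ly51-negative with high (mTEChi) or low (mTEClo) MHC class II, without a positive epithelial marker. The first pair held wild-type (WT) mTEChi and mTEChi of Aire-/- (Aire-KO) mice, which lack Aire in every cell, and the second held mTEChi and mTEClo from the same WT mice. The other 5 libraries were WT mTEChi after 0, 1.5, 3, 6 and 12 h in 1 µM actinomycin D, an inhibitor of transcription. Each of the 9 groups held 1 library, so there are no replicates, every fold compares libraries, and its 95% interval covers counting error only. In such bulk samples, fewer cells of a type and less RNA per cell cannot be told apart.

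Counts summed over all entries came to between 74161592 and 195444567 reads in the libraries of both pairs, 91610143 at 0 h, and 21124165, 13953047, 11295960 and 1746825 after 1.5, 3, 6 and 12 h. Treated libraries were made with SMARTer and Nextera kits and the rest with TruSeq, so the effects of kit and of treatment cannot be told apart in any contrast with 0 h. The share of entries at 0 reads was 2.71%, 5.18%, 17.9%, 31.5% and 26.9% from 0 to 12 h. Aire itself stood at 259 CPM (reads divided by the library total and multiplied by 1e+06) in WT and at 661 in the Aire-KO-labelled library, counted over the whole transcript, so the level does not check that label. No sample name heads either column of the pair, and WT was assigned by the direction in the study's own code. Of 10 mTEChi maturation genes, 8 were at least 3-fold higher in mTEChi than in mTEClo. Of 7 mTEClo genes, 5 were at least 3-fold higher in mTEClo. Over all entries the shares were 11.8% and 12.8%. The most abundant of the 10 were Cd74 and the MHC class II genes H2-Aa, H2-Ab1 and H2-Eb1. The cells were sorted on MHC class II, so part of this result follows from the sort.

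On mouse build mm9, the GENCODE vM1 annotation placed 40 members once, all on chromosome 3 between 91884197 and 93252999, a stretch of 1.37 Mb. Lor lay at one end and Tchh, the hair follicle protein trichohyalin, at the other. The Sprr genes came next to Lor, then Ivl, the Lce1 and Lce3 genes with Crct1 among them, and the fused S100 genes. Lce1k and Sprr2a1 were not placed. Because the authors trimmed reads to 50 bases, the share of 50-base exon windows that occur once in the genome was computed for each placed member. It was over 90% for 15 members and under 50% for 4, namely Sprr2a2 (1.45%), Hrnr (30.3%), Lce3d (33.5%) and Lce3f (48.7%), and counts of near-identical copies are uncertain as single genes. Whether multiply placed reads were kept is not given in the sources used here. Sprr2a1 and Sprr2a2 both held 15722 reads in WT of the Aire pair, so the values of Sprr2a cannot be assigned to 1 gene.

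Promoters are shown for 7 members of different families, because short sequence words in them divide the members by family. Each line gives the 210 bases before the transcription start, 5′ to 3′, from the RefSeq promoters of build GRCm38.p6. Capitals mark TATAAA or ATAAAA starting 40 to 20 bases before the start, and TGAGTCA on either strand, the core sequence bound by AP-1 factors. Lor, Ivl and Sprr2i hold TATAAA and the AP-1 core, Rptn holds TATAAA alone, Sprr1a holds the AP-1 core at 2 places and neither other word at that distance, and Lce1h and Lce3b hold ATAAAA alone.
Lor (chr3:92083143-92083352, strand -): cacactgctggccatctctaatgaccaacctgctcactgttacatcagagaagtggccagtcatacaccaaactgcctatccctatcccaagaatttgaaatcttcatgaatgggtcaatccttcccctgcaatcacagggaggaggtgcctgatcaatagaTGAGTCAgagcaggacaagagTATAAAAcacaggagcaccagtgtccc
Ivl (chr3:92573736-92573945, strand -): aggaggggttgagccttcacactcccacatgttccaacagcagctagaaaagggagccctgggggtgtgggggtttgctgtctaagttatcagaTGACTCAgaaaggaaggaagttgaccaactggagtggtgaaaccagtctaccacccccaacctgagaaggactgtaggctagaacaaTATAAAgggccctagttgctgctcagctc
Sprr2i (chr3:92407781-92407990, strand +): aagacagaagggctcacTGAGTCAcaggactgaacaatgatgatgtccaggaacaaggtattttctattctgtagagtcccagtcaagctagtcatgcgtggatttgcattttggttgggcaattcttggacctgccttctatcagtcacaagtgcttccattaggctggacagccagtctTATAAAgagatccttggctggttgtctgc
Sprr1a (chr3:92485882-92486091, strand -): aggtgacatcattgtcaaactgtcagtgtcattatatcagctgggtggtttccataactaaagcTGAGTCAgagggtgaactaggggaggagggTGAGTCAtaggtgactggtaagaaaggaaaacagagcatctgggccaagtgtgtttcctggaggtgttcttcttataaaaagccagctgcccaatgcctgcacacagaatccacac
Rptn (chr3:93393489-93393698, strand +): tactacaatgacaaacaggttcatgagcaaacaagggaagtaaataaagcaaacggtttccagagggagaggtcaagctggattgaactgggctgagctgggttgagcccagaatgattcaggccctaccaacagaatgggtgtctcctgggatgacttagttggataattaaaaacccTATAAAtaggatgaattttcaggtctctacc
Lce1h (chr3:92765066-92765275, strand -): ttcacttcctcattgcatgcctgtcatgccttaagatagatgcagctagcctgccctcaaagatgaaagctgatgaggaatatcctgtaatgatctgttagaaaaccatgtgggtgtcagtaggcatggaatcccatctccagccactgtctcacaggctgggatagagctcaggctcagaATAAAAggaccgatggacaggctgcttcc
Lce3b (chr3:92932769-92932978, strand +): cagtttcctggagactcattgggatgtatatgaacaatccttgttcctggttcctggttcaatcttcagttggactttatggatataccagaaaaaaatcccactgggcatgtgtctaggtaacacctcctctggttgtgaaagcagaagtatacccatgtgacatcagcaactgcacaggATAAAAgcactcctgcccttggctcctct

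RefSeq promoters were matched to 38 members by symbol, all but Crct1, Lce1f, Sprr2g and Sprr2j-ps. Searched over 300 bases, 250 before and 50 after the start, TATAAA at that distance stood in 15 of 38 (39.5%) against 1.99% of 32851 mouse promoters. ATAAAA stood in 23 (60.5%) against 1.74%, and 29 (76.3%) held at least 1 of these words, which overlap as TATAAAA, against 2.87%. TGAGTCA on either strand stood in 10 (26.3%) against 5.20%. Their presence differed by family. All 7 Sprr2 promoters from Sprr2b to Sprr2k held TATAAA and the AP-1 core, and those of Sprr2a1 and Sprr2a2 neither. None of 12 Lce1 and 6 Lce3 promoters held the AP-1 core, while 11 and 5 of them held ATAAAA at that distance. Genes of a family share sequence, so these are not independent counts. A match describes letters and not a bound site.

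In untreated WT mTEChi the members spanned a wide range of levels. Expressed as RPKM (reads per kilobase of exon, scaled to library size as CPM are), Sprr1a was highest on average over the 3 libraries, with 309 in WT of the Aire pair, 152 in the second mTEChi library and 278 at 0 h. The level of Rptn (repetin, a fused S100 protein) was 123, 83.2 and 378 in the same order. Sprr1a and Rptn overlapped each other and lay above every other member, whose highest single value was 55.5 for Crct1, a cysteine-rich gene between the Lce3 genes and Lce1m. Next on average came Crct1, Sprr2a, Sprr1b, Tchh, Ivl and Hrnr, with means from 13.6 to 30.7 RPKM. Lor, the main envelope protein of skin, stood at 11.6, 7.8 and 9.73 RPKM and ranked 13th. The 20 Lce genes had means between 0.616 for Lce1l and 8.04 for Lce3b, and Flg2, a filaggrin relative, was lowest of all at 0.575. RPKM depend on the exon length of the entry that was read. It was 3547 bases for Sprr2a, 609 to 747 for the other Sprr2 genes and 231 for Sprr4. In CPM, Sprr2a stood at 151, 56.6 and 109 in WT of the Aire pair, mTEChi and 0 h, beside 244, 120 and 220 for Sprr1a. How far entry length sets this order was not tested.

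Of the 41 neighbouring pairs in this order, only Rptn over Crct1 had ranges over the libraries that did not overlap, so the order of the rest is not resolved. The ratio of the highest to the lowest CPM over these 3 libraries had a median of 2.30 over the 37 members measured in all of them, beside 1.91 over 24470 entries with at least 10 reads. Sprr2b varied most, with 907, 698 and 31 reads in WT of the Aire pair, mTEChi and 0 h. Lce1d varied least, at 1.24, 1.45 and 1.46 CPM. Rptn alone supplied 37.4% to 61.5% of the reads of the members counted in each of these libraries, with Sprr2a counted once. The Lce genes together supplied 1.24% to 3.82%. The 61.5% and 1.24% are from 0 h, where 36 members were counted, 17 of them Lce genes.

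**Figure D1:**
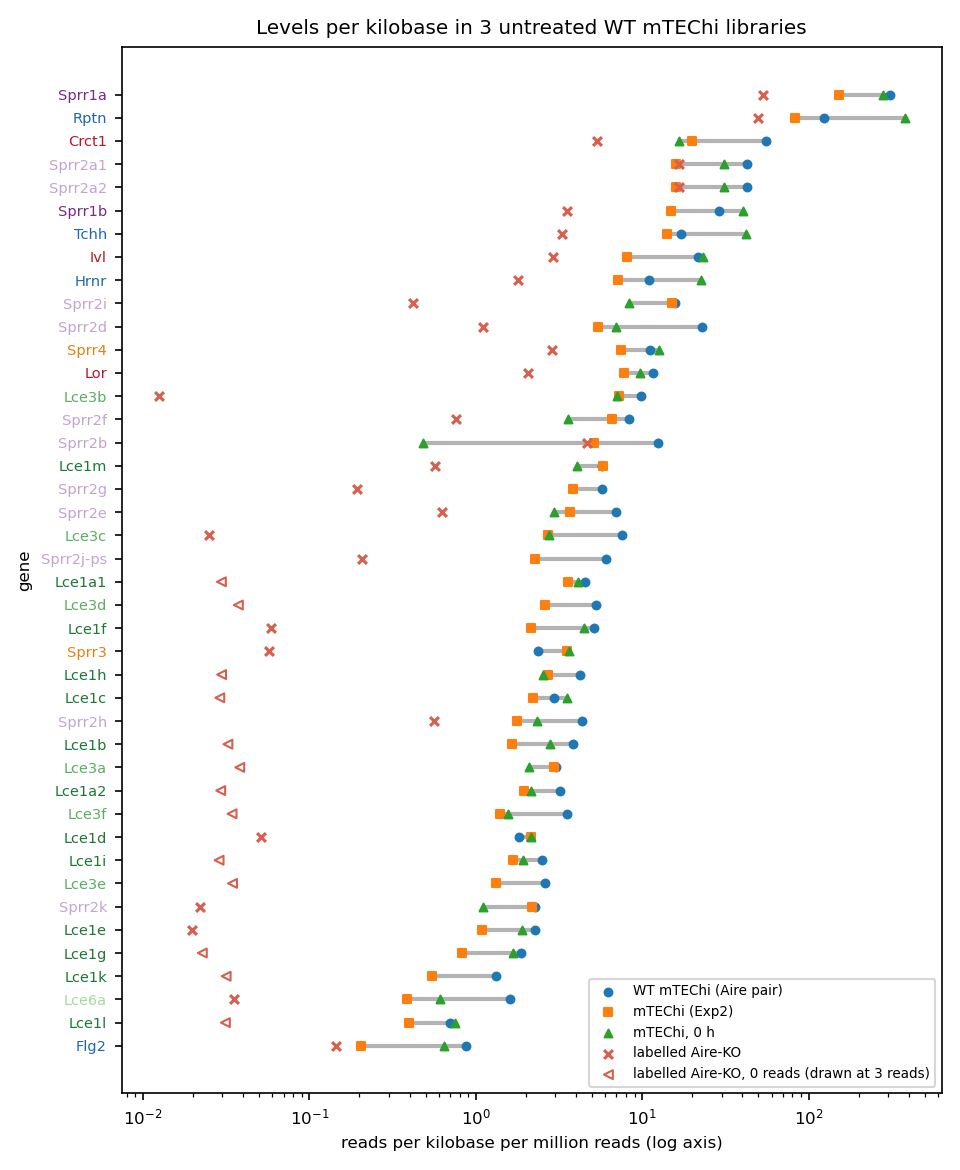
Level of each member in RPKM (log axis), in the 3 untreated WT mTEChi libraries (filled symbols, grey bar from lowest to highest) and in the Aire-KO-labelled library (red), ordered by the WT mean, with names coloured by family. Sprr1a and Rptn lie apart at the top, and the red symbols of most Lce genes lie far to the left, 13 of them drawn at 3 reads because the count was 0.

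The first comparison asks which of these genes depend on Aire. Every one of the 42 members was higher in WT than in the Aire-KO-labelled library, and 38 were at least 3-fold higher. Among 26761 entries that reached 10 normalised counts, 21.1% were at least 3-fold higher and 2.03% at least 3-fold lower, and no member was in the latter class. The remaining 4 (Rptn, Sprr2a1, Sprr2a2 and Sprr2b) were 2.11-fold to 2.27-fold higher. The median fold over members was 27.8 with members at 0 reads taken at their lower bound, beside 1.02 over all entries. Sizes differed by family, with a median of 80.7 over the 20 Lce genes and 9.34 over the 15 Sprr genes. It was 4.79 over the fused S100 genes and 6.39 over Lor, Ivl and Crct1. In CPM, the WT library of this pair was the highest of the 3 untreated WT mTEChi libraries for 26 of 37 members, and the 0 h library for 10. The size of these folds therefore depends on the WT library used.

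The Lce1 genes, which code for small cysteine-rich and glycine-rich proteins of the late envelope, were almost absent from the Aire-KO-labelled library, with Lce1m as the exception. Of 13, 9 had 0 reads there, which allows up to 0.0210 CPM. Over all entries, 13.6% had 0 reads in that library and 9.14% in WT of the pair. Lce1a1 had 363 normalised counts in WT, Lce1h 336, Lce1b 279 and Lce1a2 258, all against 0, and were at least 131-fold, 121-fold, 101-fold and 93.1-fold higher, set against 3 reads. The same bound was 86.5-fold for Lce1c (240 in WT), 74.8-fold for Lce1i (208) and 70.1-fold for Lce1g (195), and the 2 lowest genes, Lce1k and Lce1l, had 92 and 49 reads in WT. Few reads remained for 3 more. Lce1f held 414 normalised counts in WT and 5.55 (6 reads), a difference of 74.6-fold (33.97 to 205). Lce1d held 139 and 4.62 (5 reads), 30.2-fold (12.6 to 94.5) higher in WT. Lce1e held 183 and 1.85 (2 reads), a ratio of 98.8 with an interval of 26.9 to 822. Lce1m stood apart. It lies beyond the Lce3 genes, next to Crct1, and held 567 normalised counts in WT and 65.7 in the Aire-KO-labelled library, 8.63-fold (6.72 to 11.2) higher in WT.

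The Lce3 genes, known in skin for induction after barrier damage, were the family with the lowest level in the Aire-KO-labelled library, with 3 reads over all 6 genes against 1895 in WT. Lce3b held 619.6 normalised counts in WT and 0.925 (1 read) in the other library, a ratio of 669.9 with an interval from 119.8 upward to 26506. Lce3c held 482 and 1.85 (2 reads), a ratio of 261 (71.8 to 2159). The other 4 had 0 reads in the Aire-KO-labelled library. Their normalised counts in WT were 189 for Lce3a, 334 for Lce3d, 179 for Lce3e and 244 for Lce3f, so they were at least 68.2-fold, 120.4-fold, 64.7-fold and 88.1-fold higher. The sequences of Lce3d, Lce3f and Lce3c recur in part elsewhere in the genome, with 61.8% of windows unique for Lce3c. Lce6a, a lone Lce gene beside Ivl, held 144 normalised counts in WT and 3.699 (4 reads), 38.9-fold (14.8 to 145) higher.

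**Figure D2:**
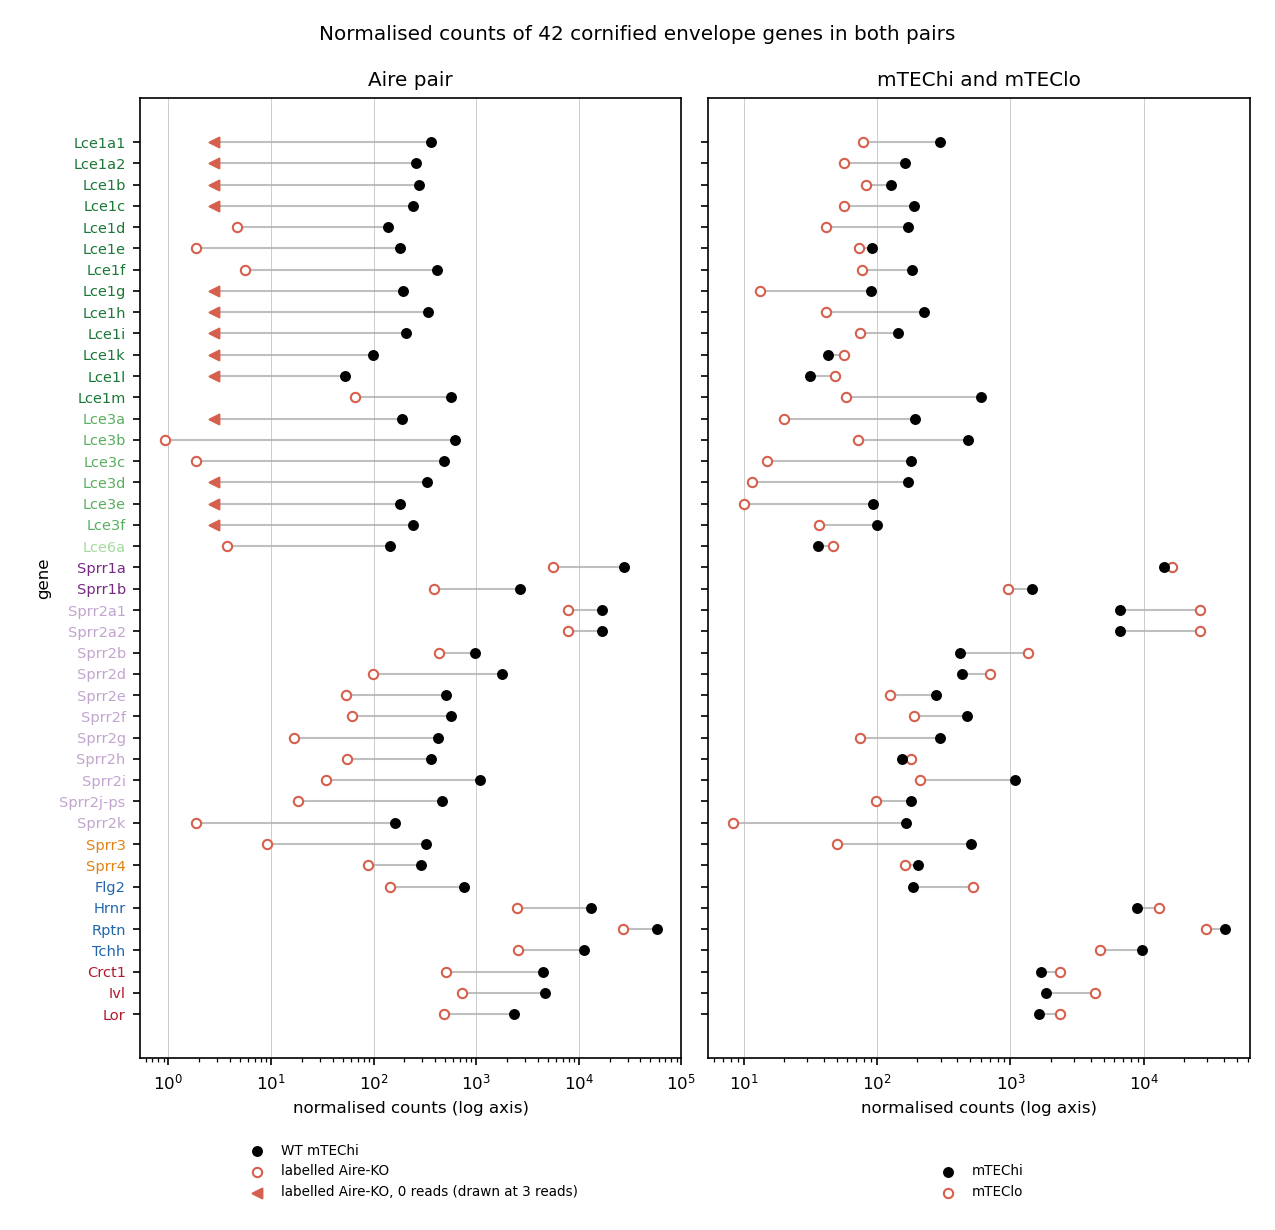
Normalised counts (log axis) of the 42 members in the Aire pair (left) and in mTEChi and mTEClo (right), grouped by family, with filled points for WT mTEChi or mTEChi and open red points for the other library of the pair, 1 library each. In the left panel every filled point is to the right of its partner and 13 Lce genes had 0 reads in the Aire-KO-labelled library, while in the right panel the order differs between families.

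Among the Sprr genes the difference ran from 2.18-fold to 88.3-fold. Sprr1a, with 27570 normalised counts in WT and 5582 in the Aire-KO-labelled library, was 4.94-fold (4.802 to 5.08) higher in WT. Its neighbour Sprr1b, with 2672 and 385, was 6.94-fold (6.26 to 7.72) higher. Both code for proteins that keratinocytes make under stress and in the upper layers. Sprr3, a bridge protein of oral and oesophageal epithelium, stood at 324 and 9.25 (10 reads), 35.1-fold (18.8 to 73.9) higher in WT, and Sprr4 at 289.8 and 87.9, 3.298-fold (2.601 to 4.21) higher.

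The Sprr2 genes, 11 short paralogs in a row, were spread over the whole range. The smallest differences belonged to Sprr2a, the most abundant Sprr2 sequence, and to Sprr2b. Sprr2a held 16999.6 normalised counts in WT and 7811 in the Aire-KO-labelled library (2.18-fold (2.12 to 2.23)), and Sprr2b 981 and 432 (2.27-fold (2.03 to 2.54)). The 3 next were Sprr2h (365 and 55.5, 6.59-fold (4.99 to 8.82)), Sprr2f (569.8 and 61.04, 9.34-fold (7.22 to 12.2)) and Sprr2e (511 and 53.6, 9.53-fold (7.25 to 12.8)). Sprr2d, next in the row to Sprr2b, was far lower in the Aire-KO-labelled library, at 98.96 against 1770 in WT, 17.9-fold (14.7 to 21.96). Larger still were the differences of Sprr2j-ps (463 and 18.5, 25.02-fold (15.997 to 41.4)), Sprr2g (424 and 16.6, 25.5-fold (15.9 to 43.4)) and Sprr2i (1094 and 34.2, 31.98-fold (23.04 to 45.7)). Sprr2k, at the far end of the row, had 163 in WT and 2 reads in the Aire-KO-labelled library, a ratio of 88.3 (24.02 to 736). The intervals of Sprr2a and Sprr2b lie below those of all 8 other Sprr2 genes. In CPM, Sprr2d was at 15.7 in WT of this pair, 3.67 in the second mTEChi library and 4.73 at 0 h. It was at 0.748 in the Aire-KO-labelled library, so the fold of Sprr2d depends on the WT library.

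The fused S100 genes, Lor, Ivl and Crct1 all had reads in the Aire-KO-labelled library. Rptn held 57649.7 normalised counts in WT and 27286 in the Aire-KO-labelled library, 2.11-fold (2.08 to 2.14) higher in WT, the smallest fold of any member. Tchh held 11265 and 2556, 4.41-fold (4.23 to 4.597) higher. Hrnr (hornerin), with 13249 and 2516, was 5.26-fold (5.05 to 5.49) higher, and Flg2, with 756 and 146, 5.17-fold (4.35 to 6.19). Lor stood at 2334 and 486 (4.799-fold (4.36 to 5.29)) and Ivl at 4703 and 736 (6.39-fold (5.92 to 6.899)). For Crct1 the values were 4489 and 509 (8.83-fold (8.07 to 9.66)). These 7 folds fall between 2.11 and 8.83, below the fold or lower bound of 19 of the 20 Lce genes, Lce1m (8.63) being the exception. Rptn, Sprr2a and Sprr1a remained the most abundant members in the Aire-KO-labelled library by reads, with 83.1% of all members' reads, and the Lce genes made 0.172% of them, against 3.59% in WT.

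Read counts in the Aire-KO-labelled library are given by promoter word. The 10 members with the AP-1 core had 2 to 6036 reads there, with a median of 86.5, and 28 without it had 0 to 29503, with a median of 1.5. All 13 members at 0 reads lacked both the AP-1 core and TATAAA, and all of them but Lce1a1 and Lce3a held ATAAAA. In WT the medians were 9.20 CPM with the AP-1 core and 2.72 without. Rptn, Hrnr, Tchh and Sprr2a lacked the AP-1 core and had at least 2721 reads in the Aire-KO-labelled library. The words were chosen with these levels known and mark families, so this is a description.

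As a measure of spread, the WT mTEChi libraries without actinomycin D, 3 in all, were fitted against the Aire-KO-labelled library in edgeR. They come from separate experiments (the Aire pair, the second pair and the 0 h reference), so the spread is that between experiments, and the fit assumes that the lone other library varies alike. Of 37 members in that fit, 19 were higher in WT at an adjusted p under 0.05 by edgeR's quasi-likelihood test and none lower, where 8.64% of 23916 entries were called higher. The 19 were all 12 Lce1 and 4 Lce3 genes tested, Sprr2i, Sprr2k and Sprr3. Lce3b and Lce1a1 shared the lowest adjusted p, 0.00878 in edgeR, and Sprr3 and Lce1m had 0.0102 and 0.0392. None of Lor (adjusted p = 0.0832 in edgeR), Ivl (0.114), Sprr1a (0.109), Tchh (0.0847) and Rptn (0.337) passed. All 37 members kept the direction of the pair's fold in edgeR and in DESeq2, and all 42 did so in edgeR without the 0 h library. Which members were called depended on the tool and on the libraries used. In CPM, the Aire-KO-labelled library lay below each of the 3 WT libraries for 34 of 37 members, where 46.7% of 24502 entries did so. The exceptions were Sprr2a1, Sprr2a2 and Sprr2b.

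The second comparison asks how the members change between MHC class II low and high mTEC. The families went different ways. Of 42 members, 15 were at least 3-fold higher in mTEChi, beside 11.8% of 29212 entries, and 3 at least 3-fold higher in mTEClo, beside 12.8%. A further 16 lay within 2-fold, beside 61.1% of those entries. The median fold, mTEChi over mTEClo, was 1.99 over members and 1.01 over all entries, with 9.48 over Lce3, 2.88 over Lce1, 1.83 over Sprr2, 1.03 over the fused S100 genes and 0.696 over Lor, Ivl and Crct1.

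All 6 Lce3 genes were higher in mTEChi. Lce3d held 172 normalised counts in mTEChi and 11.6 in mTEClo, 14.8-fold (7.07 to 37.03) higher, and Lce3c 181 and 14.98, 12.1-fold (6.28 to 26.7). For Lce3b the counts were 479 and 71.6, 6.69-fold (4.92 to 9.32). Lce3a (191 and 19.97) and Lce3e (93.7 and 9.98) differed by 9.57-fold (5.403 to 18.7) and 9.39-fold (4.22 to 25.98), and Lce3f, at 99.8 and 36.6, by 2.72-fold (1.74 to 4.47). Unlike in the Aire-KO-labelled library, every Lce3 gene had reads in mTEClo, from 6 for Lce3e to 43 for Lce3b. Of all entries, 3.13% had 0 reads in mTEClo, against 13.6% in the Aire-KO-labelled library.

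The Lce1 genes were less uniform. Lce1m differed most, with 602 normalised counts in mTEChi and 58.2 in mTEClo, 10.3-fold (7.38 to 14.9) higher in mTEChi. Lce1g (89.5 and 13.3, 6.73-fold (3.33 to 15.9)), Lce1h (226 and 41.6, 5.43-fold (3.62 to 8.502)) and Lce1d (171 and 41.6, 4.103-fold (2.72 to 6.45)) followed. Lce1a1 was at 297 and 78.2 (3.796-fold (2.81 to 5.24)) and Lce1c at 188 and 56.6 (3.32-fold (2.33 to 4.89)). These 6 were at least 3-fold higher in mTEChi. Lce1a2 (163 and 56.6), Lce1f (181 and 76.5), Lce1i (143 and 74.9), Lce1b (126 and 83.2) and Lce1e (91.3 and 73.2) had folds from 2.88 down to 1.25. The intervals of Lce1e, Lce1k, Lce1l and Lce6a (36.1 and 46.6) included 1.

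The Sprr2 row split in both directions. Sprr2a held 26220.2 normalised counts in mTEClo and 6649.5 in mTEChi, 3.94-fold (3.85 to 4.04) higher in mTEClo, and Sprr2b 1361 and 419, 3.25-fold (2.93 to 3.595) higher in mTEClo. Sprr2d was also higher in mTEClo, at 701 and 431 (1.62-fold (1.44 to 1.83)), and the interval of Sprr2h (179.7 and 154) included 1. The opposite held for Sprr2k, at 163 in mTEChi and 8.32 in mTEClo (19.6-fold (8.32 to 60.99) higher in mTEChi, the largest fold of any member), and for Sprr2i, at 1088 and 211 (5.15-fold (4.298 to 6.21)). Sprr2g held 296 and 74.9 (3.95-fold (2.91 to 5.48)), Sprr2f 469.9 and 189.7 (2.48-fold (2.03 to 3.04)), Sprr2e 278 and 125 (2.23-fold (1.74 to 2.88)) and Sprr2j-ps 179.7 and 98.2 (1.83-fold (1.38 to 2.46)). Sprr2d was at 15.7 CPM in WT of the Aire pair and 4.73 at 0 h, on both sides of the 5.68 in mTEClo. Sprr3 was at 509.6 and 49.9, 10.2-fold (7.097 to 15.2) higher in mTEChi. Sprr1a (14129.5 and 16124), Sprr1b (1445 and 953) and Sprr4 (203 and 163) lay within 2-fold.

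Lor, Ivl and Crct1 were higher in mTEClo than in mTEChi of the same mice. Ivl held 4338 normalised counts in mTEClo and 1832 in mTEChi, 2.37-fold (2.25 to 2.496) higher in mTEClo. For Lor the values were 2341 and 1629.8 (1.44-fold (1.35 to 1.53)) and for Crct1 2355 and 1680.3 (1.401-fold (1.31 to 1.49)), both within 2-fold. Against the other untreated WT mTEChi libraries the order differed. Ivl was at 35.2 CPM in mTEClo and at 41.7, 15.6 and 44.6 in WT of the Aire pair, mTEChi of the same mice and 0 h, and Crct1 at 19.1 and at 39.8, 14.3 and 12.02. Of the fused S100 genes, Flg2 (523 and 184, 2.83-fold (2.41 to 3.33)) and Hrnr (13081 and 8918, 1.47-fold (1.43 to 1.51)) were higher in mTEClo of this pair, and Tchh (9634 and 4674, 2.06-fold (1.98 to 2.15)) and Rptn (40523 and 29322, 1.38-fold (1.36 to 1.41)) were higher in mTEChi. Summed over members with Sprr2a counted once, the level was 843 CPM in mTEClo and 804 in mTEChi of the same mice, with 1367 in WT of the Aire pair and 2551 over the 36 members counted at 0 h. The Lce genes alone summed to 7.86 CPM in mTEClo, and to 30.7, 49.0 and 31.7 in the same order, the last over the 17 Lce genes counted at 0 h.

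**Figure D3:**
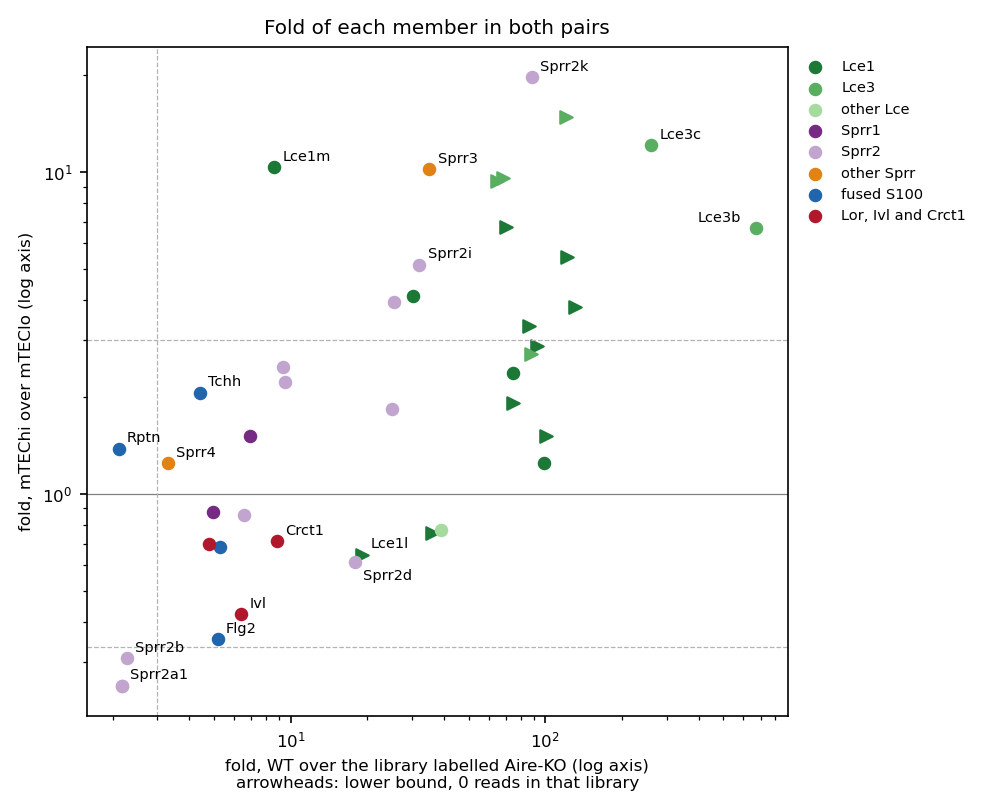
Fold of each member in WT over the Aire-KO-labelled library (horizontal, log axis) and in mTEChi over mTEClo (vertical, log axis), 1 point per gene coloured by family, with arrowheads for lower bounds where the Aire-KO-labelled library had 0 reads and dashed lines at 3-fold. Sprr2a and Sprr2b lie at the lower left, with 2.18-fold and 2.27-fold in the Aire pair and 0.254 and 0.308 in the other, and Sprr2k, Sprr3, Sprr2i and 5 Lce3 genes lie at the upper right.

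These folds come from libraries of the same mice. In the fit of the 3 untreated WT mTEChi libraries against mTEClo, only 1 of the 3 shares its mice with mTEClo, the spread is again that between experiments, and mTEClo is a lone library. Direction turned for 6 of 37 members in that fit, in edgeR and in DESeq2. Crct1, Hrnr, Lce6a, Sprr1a, Sprr2d and Sprr2h, lower in mTEChi than in mTEClo within the pair, were higher in WT mTEChi there, with log2 differences in edgeR of 0.10 for Crct1, 0.27 for Hrnr and 0.40 for Sprr2d. None of 37 members was called by edgeR's quasi-likelihood test in either direction, where 1.92% of 24687 entries were called higher in WT mTEChi and 1.45% lower. The lowest adjusted p in edgeR was 0.0541, for Sprr3. DESeq2, and edgeR without the 0 h library, called some members higher in WT mTEChi and none lower. Which members were called therefore depended on the tool and on the libraries used. In CPM, mTEClo lay below each of the 3 WT mTEChi libraries for 24 of 37 members, 15 of them Lce genes, where 36.4% of 25033 entries did so. It lay above all 3 for Sprr2a1, Sprr2a2 and Sprr2b, where 27.6% did so.

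The third comparison asks how transcript levels changed, relative to the library total, once transcription was blocked. CPM are shares of a library's reads. A level course does not show that a transcript was undegraded, and a rise does not show that it increased. The absolute loss of RNA was not tested. With levels in CPM, the most abundant members fell into 3 patterns. Fused S100 genes, Lor, Ivl and Crct1 were low by 12 h, Sprr1a and Sprr1b hardly moved, and Sprr2a was above its 0 h level at 6 and 12 h. Of the 42 members 37 were followed over time, and not analysed here were Lce1k, Lce3d, Lce3e, Sprr2g and Sprr2j-ps. At 1.5 h, 1 was at least 2-fold below 0 h and 3 at least 2-fold above, beside 5.28% and 1.75% of 23850 entries with at least 10 reads. At 3 h the counts were 8 below and 7 above (21.9% and 8.33% of entries). At 6 h 19 were below and 7 above (40.4% and 12.5%), and at 12 h 16 were below and 14 above (40.7% and 11.6%). The median log2 change of members was -0.01, 0.26, -1.10 and -0.24 at the 4 times, beside -0.13, -0.18, -0.54 and -0.60 over those entries.

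Rptn had 143613, 24875, 28813, 8238 and 398 reads at 0, 1.5, 3, 6 and 12 h, or 1568, 1178, 2065, 729 and 228 CPM. It was highest at 3 h, and at 12 h its log2 change against 0 h was -2.78. Tchh, with 22328, 3051, 2892, 1146 and 73 reads, went from 244 CPM to 41.8, a log2 change of -2.54. The reads of Hrnr were 22191, 4461, 3546, 602 and 109. In CPM Hrnr was level until 3 h (254 against 242) and then stood at 53.3 and 62.4. Flg2, with 454, 224, 162, 0 and 0 reads, was above its 0 h level at 1.5 and 3 h and had no read afterwards. By counting error alone, 0 reads allow up to 0.266 CPM at 6 h and 1.72 at 12 h. Of 7356 entries in the middle of the members' read range at 0 h, 36.1% had 0 reads at 6 h and 26.2% at 12 h. Lce1m had 73, 0, 181 and 2 reads at 1.5, 3, 6 and 12 h, so a 0 does not cap the level. All 4 fused S100 genes were at least 2-fold below 0 h at 6 and at 12 h.

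Ivl, Lor and Crct1 followed at 12 h. Ivl had 4085, 592, 268, 335 and 6 reads, or 44.6, 28.02, 19.2, 29.7 and 3.43 CPM, Lor had 1585, 386, 339, 109 and 10 reads and Crct1 1101, 311, 221, 114 and 1. Their log2 changes at 12 h were -3.69, -1.59 and -4.35, and each was within 2-fold of 0 h at 6 h. Those 12 h values rest on 6, 10 and 1 reads.

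The Sprr genes took different courses. Sprr1a had 20135, 4601, 3070, 1590 and 346 reads, or 219.8, 218, 220, 141 and 198 CPM, and never left a 2-fold range. Sprr1b had 3039, 661, 425, 275 and 49 reads and between 24.3 and 33.2 CPM. Sprr2a, with 10023, 1964, 1110, 2175 and 524 reads, stood at 109, 92.97, 79.6, 193 and 300 CPM, the highest of all members at 12 h, where it supplied 30.4% of the members' reads against 61.5% for Rptn at 0 h. Sprr2i (471, 105, 22, 118 and 32 reads) and Sprr3 (407, 123, 92, 43 and 40) were 3.56 and 5.15 times their 0 h CPM at 12 h. The 6 h library was the least complete. At 6 h, 6 of 9 Sprr2 genes had 0 reads (Sprr2b, Sprr2d, Sprr2e, Sprr2f, Sprr2h and Sprr2k), and 5 of them had reads again at 12 h.

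The Lce genes had few reads after treatment, with a highest single count of 94, 54, 181 and 23 at the 4 times. At 1.5 h, the time with the fewest entries at 0, 15 of 17 Lce genes were within 2-fold of 0 h, with Lce1l below (5 reads) and Lce3a above (61 reads). Lce3b had 363, 94, 25, 88 and 23 reads and 3.96, 4.45, 1.79, 7.79 and 13.2 CPM, and Lce1a1 268, 57, 54, 135 and 7 reads and 2.93, 2.698, 3.87, 11.95 and 4.01 CPM. Lce1h, with 165, 52, 37, 38 and 9 reads, was the Lce1 gene with reads at all times whose CPM ran upward throughout, from 1.801 to 5.15. Of the 17, 9 had 0 reads at 6 h and 5 at 12 h. All 4 Lce3 genes kept reads at every time, 3.98 to 9.38 CPM at 6 h against 0.961 to 3.96 at 0 h.

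**Figure D4:**
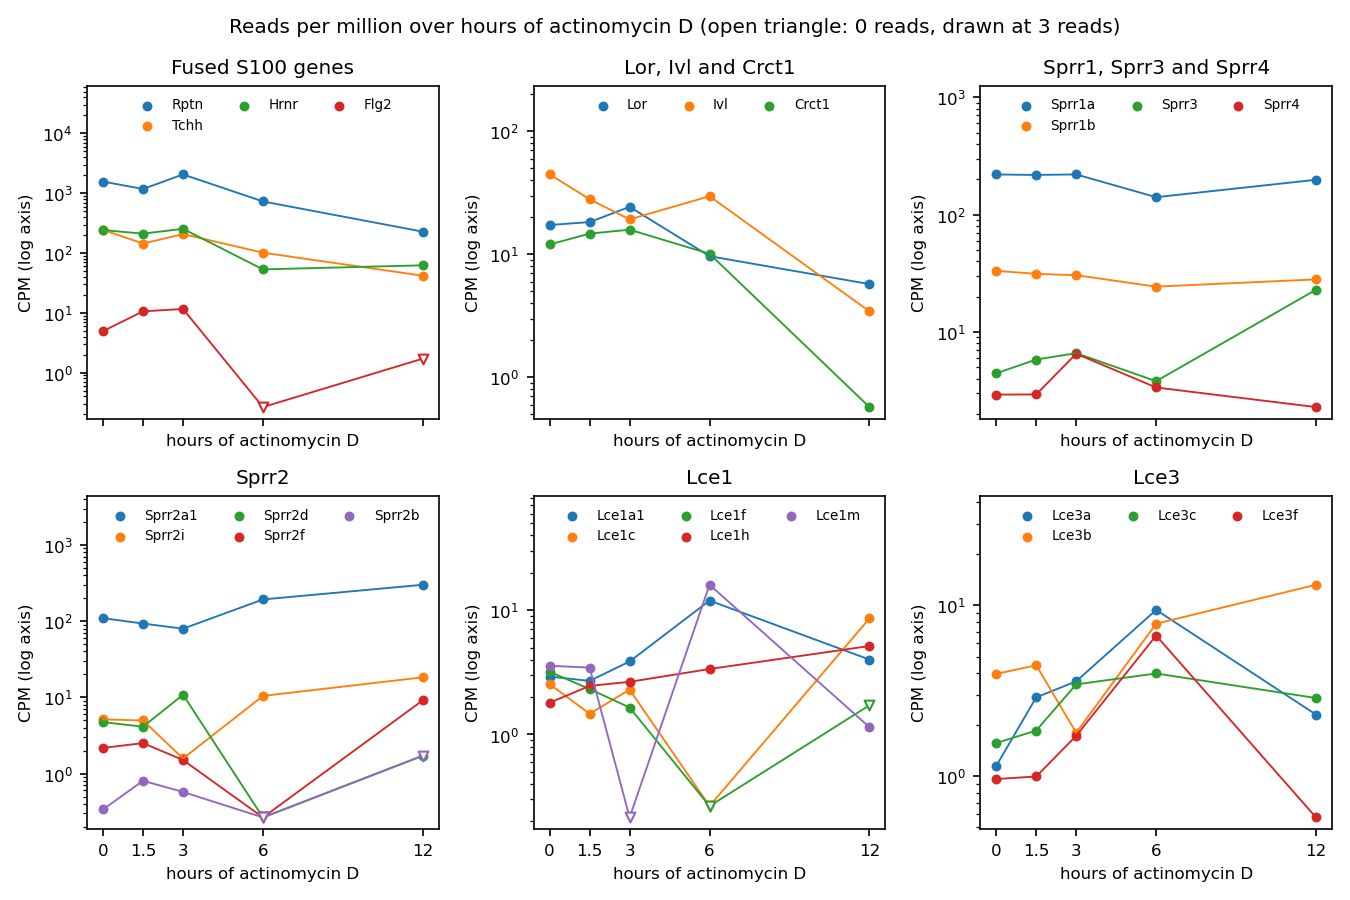
CPM (log axis) of selected members at 0, 1.5, 3, 6 and 12 h of actinomycin D, 1 library per time, with open triangles for 0 reads drawn at 3 reads and lines joining the points of a gene. Sprr1a and Sprr1b run level, Sprr2a ends at 300 CPM from 109, and Rptn, Tchh, Ivl and Crct1 end below their start.

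A slope over hours was fitted to the 4 treated libraries, which share a kit. No member and no other entry was called by edgeR's quasi-likelihood test (0% of 20652 entries, 32 members among them), and the lowest adjusted p of a member was 0.252 in edgeR. At an unadjusted p under 0.05 there were 8 members, Crct1, Flg2, Hrnr, Ivl, Rptn and Tchh with a negative slope and Sprr2a1 and Sprr2a2 with a positive one, and 1896 entries in all. The slope of Rptn was -0.27 and that of Sprr2a1 0.19 log2 units per hour. DESeq2 gave an adjusted p for 6 members and called Rptn, Tchh, Sprr2a1 and Sprr2a2, 4 of 388 entries called. Without the 6 h library edgeR called 10 members (Crct1, Flg2, Hrnr, Ivl, Rptn, Tchh, Sprr2a1, Sprr2a2, Sprr2i and Sprr3) among 1874 entries, and without the 12 h library it called Hrnr among 605.

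Other genes of cornification are given by list. Of all entries tested, 21.1% were at least 3-fold higher in WT of the Aire pair and 2.03% at least 3-fold lower. Of 17 cross-linking and scaffold genes, 10 were at least 3-fold higher in WT than in the Aire-KO-labelled library and none lower (median 3.997-fold). In this list, which also holds genes of other function, Dmkn, a secreted dermokine, stood at 347 and 36.4 CPM. Cstb, the protease inhibitor cystatin B, stood at 312 and 276. Desmosome and desquamation genes gave 15 of 23 higher and 1 lower (3.91), lipid envelope genes 11 of 15 and none (3.86), and epidermal keratins 12 of 15 and none (6.75). Krt10, the keratin of suprabasal layers, was 25.97-fold higher (24.9 to 27.04), and Krt5 and Krt14, of the basal layer, had folds of 1.13 and 0.849. Regulators of epidermal differentiation gave 1 of 20 higher and none lower (1.61). Of 21 tested other genes of the complex outside the rule, 9 were higher and 1 lower (1.60), and the abundant S100a14 and S100a16 were 1.84-fold and 2.24-fold higher in the Aire-KO-labelled library.

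The same lists were counted between mTEChi and mTEClo. Over all entries, 11.8% were at least 3-fold higher in mTEChi and 12.8% in mTEClo. At least 3-fold higher in mTEChi and in mTEClo were 3 and 1 of 17 genes on the cross-linking and scaffold list (median 0.581). Desmosome and desquamation genes gave 2 and none of 23 (0.842), lipid genes 1 and none of 15 (0.796) and regulators none and 2 of 20 (0.693). Keratins gave 2 and 3 of 15 (0.656) and other complex genes 9 and none of 22 (2.04). After 12 h of actinomycin D the median log2 changes were -0.95, -0.32, -1.27, -1.44, -1.17 and 1.12 in the same order, beside -0.60 over all entries.

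Markers of other cells differed in the same libraries. The shares over all entries to set beside these counts are those given for the lists above. In the Aire pair, 6 of 8 tuft genes and 8 of 10 dendritic cell and macrophage genes were at least 3-fold higher in WT (summed level 807 and 183 CPM for tuft, 683 and 353 for the other list), with 1 of 10 thymocyte genes higher and 1 lower (45.1 and 28.7), 2 and 1 of 10 fibroblast and endothelial genes (147 and 185), none of 10 mTEChi maturation genes and 1 of 7 mTEClo genes. Between mTEChi and mTEClo, 7 of 8 tuft genes (230 and 1313 CPM) and 8 of 10 fibroblast and endothelial genes (113 and 1067) were at least 3-fold higher in mTEClo, 5 of 10 dendritic cell and macrophage genes were higher in mTEChi (551 and 89.2), and 1 thymocyte gene was higher and 2 lower (47.6 and 50.9). No marker of these lists was at 0 reads in any of these 4 libraries, and Krt5 and Krt14 stand in the keratin and mTEClo lists alike. The part of these cells in the members' differences was not tested.

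Over the actinomycin D series the summed level of the thymocyte list was 36.1, 43.5, 40.9, 116 and 181 CPM and that of the dendritic cell and macrophage list 271, 379, 366, 561 and 724 CPM at 0, 1.5, 3, 6 and 12 h. The mTEChi maturation list stood at 21985 CPM at 0 h and 42644 at 12 h, the mTEClo list at 2228 and 1980, the tuft list at 559.6 and 239, and the fibroblast and endothelial list at 228 and 278. Their part in the members' course was not tested.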

How the data were processed

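Polyadenylated RNA was sequenced in 9 libraries. Following the submitters' processing notes and the study's methods, reads passing the CASAVA filter were aligned by the authors with Bowtie 1.0.0 (genome mm9), and those lying wholly in RefSeq exons were counted with bedtools. Paired reads had been trimmed to 50 bases and joined as single reads. The deposited actinomycin D files hold raw counts per entry. For both pairs the authors deposited signal values, counts divided by a DESeq size factor, called normalised counts here. Whole reads were recovered from these (100% of values whole within 0.1). Deposited folds and p-values of the authors' own comparisons were not used. The counting is not stated to use strand.

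Folds are ratios of normalised counts with exact 95% intervals from the reads, for entries with at least 10 normalised counts per pair. A fold against 0 reads was taken against 3 reads. The limit was 3-fold in the pairs and 2-fold against 0 h. For log2 changes, 0.5 reads in proportion to depth were added before CPM were formed. Slopes and the fits with 3 untreated WT libraries used edgeR 4.0.16 (quasi-likelihood, TMM, Benjamini-Hochberg at 0.05) and DESeq2 1.42.0 in R 4.3.3, tested on simulated data. Python 3.11.15 (pandas 2.3.3, numpy 2.4.6, scipy 1.17.1) did the rest, and matplotlib 3.10.9 drew the plots. Depth ran from 1746825 to 195444567 reads. PCR copies are counted as reads, so intervals cover counting error only.

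Symbols came from the RefSeq table of GRCm38.p6 (98.1% of entries matched). Members with at least 100 reads in the higher library of either pair are named with values, and from each other list at most 4 genes with the highest mean. Members, lists, promoter words and tests were chosen with earlier results of these data known. Alternatives tried were other scalings, minimums, fold limits, tools and left-out time points.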

Additional observations from a re-analysis of the deposited data

How the results depend on the processing

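No paired analysis was possible because each group holds 1 library. For the Aire pair, 38 members were at least 3-fold higher also with scaling by total reads or TMM, without a minimum, with at least 50 normalised counts and with reads summed over the entries of a symbol, and 42 were 2-fold higher. The fit with 3 untreated WT libraries called 19 in edgeR, 30 in DESeq2 and 30 in edgeR without the 0 h library. Between mTEChi and mTEClo, 15 members were at least 3-fold higher and 3 lower, with 16 higher under total reads and 21 higher and 5 lower at a 2-fold limit. In the fit with 3 WT libraries, which come from separate experiments, direction turned for 6 of 37 members (for 6 of 42 without the 0 h library) and for none in the Aire contrast, and edgeR called 0 higher and 0 lower, DESeq2 10 and 0, and edgeR without the 0 h library 9 and 0. The 1 member at least 2-fold below 0 h at 1.5 h (Lce1l) was 0 with TMM and 0 with 1 read added. Slopes called 0 members in edgeR and 4 in DESeq2, and 0 to 10 when 1 time point was left out, 10 without 6 h and 1 without 12 h. Causes of these differences were not tested, beyond the fewer libraries of each fit. Restricted to the 35 members with at least 70% unique windows, an alternative added after seeing the data, 94.3% were higher in WT of the Aire pair (90.5% of all members) and 37.1% in mTEChi (35.7%). At 12 h a count of 0 allows up to 1.72 CPM by counting error alone, so members with few reads are not resolved there.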
